A study of Mus musculus with 20 samples.

Results

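The change in FAIRE enrichment between day 10 and day 1 neurons was described over every region of the authors' FAIRE table, 62877 regions of 62877, as the day 10 log2 enrichment minus the day 1 log2 enrichment. No region of that table was left out. The authors call the regions potential peaks, and the sources used here do not say how they were found. The regions came from mouse cells carried through neuronal differentiation, all with the strain label 159.2. The groups used were day 10 neurons, day 1 neurons and neuronal progenitors, with 2 FAIRE libraries each, so that the comparison rests on 4 of the 20 libraries of the series. The authors merged both libraries of a stage into 1 value per region, and no spread between libraries could be had. The differences below therefore carry no p-value, and the intervals given for single regions cover counting error only. The protocol text also describes an NMDA or DMSO treatment, but no treatment is given for these FAIRE libraries.

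FAIRE crosslinks proteins to DNA, shears the chromatin and recovers the DNA that is not held by nucleosomes, so that promoters, enhancers and other accessible regions are enriched in the sequenced fraction. During neuronal differentiation, dividing progenitors leave the cell cycle and become young neurons, which then extend processes and form synapses. Sets of regulatory regions are known to open and close along this course.

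The table gave an identifier, a width and 3 merged enrichments for each region, and no position or gene. The deposited values obeyed a simple form, in which the merged reads and a scaled reference each had 16 added before the log2 of their ratio was taken, and whole reads were recovered from them for 100% of the regions within a tolerance of 1e-05 reads. The scaled reference of a region was the same at all 3 stages, so it cancels in a difference between stages. The recovered reads in regions summed to 2994364 in progenitors, 2370744 in day 1 neurons and 1686303 in day 10 neurons. The sources used here do not say whether the libraries had been matched in depth before deposit, so a lower day 10 level is lower on the authors' scale. In such bulk samples, fewer cells with an open region and a weaker signal per cell cannot be told apart. The median region was 233 bp wide, with a range of 153 to 1910 bp.

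FAIRE enrichment was lower at day 10 than at day 1 over most of the table. The day 10 value was lower in 51979 regions (82.7%), higher in 8843 (14.1%) and equal in 2055 (3.27%). The difference had a median of -0.40 on the log2 scale, quartiles of -0.68 and -0.13, and 5th and 95th percentiles of -1.12 and 0.25. Day 10 was at least 2-fold lower in 5484 regions, 8.72% of the table, and at least 2-fold higher in 32, or 0.0509%. The earlier step was smaller on the same scale. Between day 1 neurons and progenitors, the median difference was -0.22, with 639 regions (1.02%) at least 2-fold lower at day 1 and 28 (0.0445%) at least 2-fold higher. Both differences use the day 1 column, so they are not independent of each other.

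The levels also drew together on the deposited scale. Median enrichment was 0.99 in progenitors, 0.79 at day 1 and 0.44 at day 10, and the SD across regions was 0.68, 0.62 and 0.43 in the same order of stages. The 95th percentile was 1.43 at day 10 and 2.26 at day 1, whereas the 5th percentile was 0.01 at day 10 and 0.21 at day 1. Enrichment lay below 0, that is under the scaled reference, in 258 regions in progenitors, in 520 at day 1 and in 2846 at day 10. The upper end of the range thus moved further than the lower end.

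**Figure D1:**
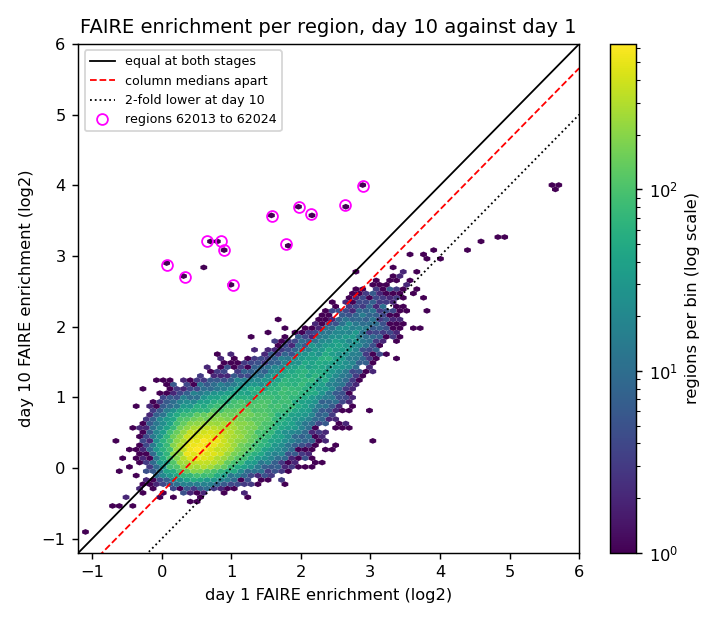
Day 10 FAIRE enrichment (y axis, log2) against day 1 enrichment (x axis, log2) for 62877 regions, coloured by the number of regions per bin on a log scale. The solid line marks equal values, the dashed line the shift of -0.34 between the column medians and the dotted line a 2-fold lower day 10 value; most regions lie below the solid line, the gap widens towards high day 1 levels, and the 12 circled regions numbered 62013 to 62024 lie above it.

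The day 10 column as a whole also lay lower. Its median lay 0.34 below the day 1 median on the log2 scale, a shift of -0.34. With each column centred on its own median, the median difference was -0.06 with quartiles of -0.34 and 0.21, and 55.6% of regions were below 0 against 44.4% above. After centring, 995 regions (1.58%) were at least 2-fold lower at day 10 and 292 (0.464%) at least 2-fold higher. Centring largely fixes this balance: with the columns centred on their means instead, the median was 0.013, with 701 regions at least 2-fold lower and 448 higher. The corresponding centred counts between day 1 and progenitors were 127 lower (0.202%) and 156 higher (0.248%).

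The constant of 16 limits what the scale can show. A region with under 16 day 1 reads cannot appear 2-fold lower even if day 10 has no reads, and 29004 regions (46.1%) lay in that range. Among the other 33873 regions, 5484 were at least 2-fold lower, which is 16.2%. The median region had 10 reads at day 10 and 17 at day 1, a read ratio of 0.588 with an exact 95% interval of 0.241 to 1.36. At that depth a single median region could not be told from no change. The constant also draws the difference of a shallow region towards 0. Reads of 10 and 17, a ratio of 0.588, gave -0.34 on the deposited scale, whereas 81 and 156, a ratio of 0.519, gave -0.83. Its part in the gradients by width and level below was not tested. The 5616 regions with at least 100 reads over both stages had a median difference of -0.84, and the day 10 value was below the day 1 value in 98.2% of them. Of these well-covered regions, 1781 (31.7%) were at least 2-fold lower and 14 (0.249%) at least 2-fold higher.

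The regions on either side of the 2-fold line show how uneven the evidence is. Region 52685, just inside the lower line, had 7 reads at day 10 and 30 at day 1, a difference of -1.0. Region 58962, just outside it at -0.99, had 95 reads at day 10 and 205 at day 1. On the higher side, region 50025 lay just inside at 1.0 with 26 reads at day 10 and 5 at day 1, and region 62854 just outside at 0.98 with 122 reads at day 10 and 54 at day 1. The read ratio of region 50025 had an exact 95% interval of 1.96 to 17.3, against 1.63 to 3.17 for region 62854, so the 2-fold line separates regions whose intervals overlap.

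Wider regions had larger falls on the deposited scale. The regions were ranked and cut into 5 bins of equal size. By width, the median difference was -0.20, -0.26, -0.35, -0.51 and -0.78 from the narrowest bin to the widest. The median widths of those bins were 156, 190, 233, 299 and 467 bp. The number of regions at least 2-fold lower at day 10 was 49, 160, 440, 1268 and 3567 in the same order, so that the widest bin held most of them. The number at least 2-fold higher was 3, 5, 7, 10 and 7, with no such trend. Width also sets the reads available, since the share of regions too shallow for a 2-fold fall was 95.2% in the narrowest bin and 0.692% in the widest. Among regions with at least 16 day 1 reads, 8.07%, 5.81%, 6.14%, 11.7% and 28.6% were at least 2-fold lower from narrowest to widest. The share was thus higher in each of the widest 3 bins than in the one before. This cut-off does not make depth equal between bins, so width and depth cannot be told apart here. It kept 607 regions in the narrowest bin and 12488 in the widest.

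Centring moves all bins by the same amount and leaves the step between them as it was. The median centred difference was 0.14 in the narrowest bin and -0.44 in the widest, and 31.9% and 86.9% of regions were below 0 in these bins. At least 2-fold lower regions numbered 1 in the narrowest bin and 800 in the widest after centring, and at least 2-fold higher regions numbered 74 and 18. Median enrichment in the widest bin was 0.98 at day 10 and 1.79 at day 1, and in the narrowest bin 0.26 at day 10 and 0.45 at day 1.

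Ranking by the day 1 level gave a steeper gradient. The median difference was 0.00, -0.24, -0.42, -0.60 and -0.86 from the lowest to the highest bin of day 1 enrichment. The share of regions below 0 was 44.3% in the lowest bin and 99.7% in the highest. At least 2-fold lower regions numbered 0, 1, 63, 1118 and 4302, and at least 2-fold higher regions 21, 2, 2, 1 and 6. After centring, 267 of the 292 at least 2-fold higher regions came from the lowest day 1 bin and 958 of the 995 lower ones from the highest. The day 1 value stands both in the ranking and, with a minus sign, in the difference, so error in that column enters both.

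Other rankings gave smaller gradients or none. By progenitor level, the median difference was -0.17, -0.25, -0.34, -0.51 and -0.80 from the lowest bin to the highest, with 85, 140, 390, 1173 and 3696 regions at least 2-fold lower. By the mean of the day 10 and day 1 levels it was -0.21, -0.26, -0.34, -0.49 and -0.77. By reference reads it was -0.34, -0.34, -0.36, -0.43 and -0.57. By the day 10 level, which stands in the difference with a plus sign, it was -0.51, -0.35, -0.26, -0.25 and -0.61, with no steady course. The step between the highest and the lowest bin was -0.86 by day 1 level, -0.63 by progenitor level, -0.56 by the mean, -0.24 by reference reads and -0.099 by day 10 level. Between day 1 and progenitors, the median difference was -0.16 in the narrowest bin of width and -0.28 in the widest.

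**Figure D2:**
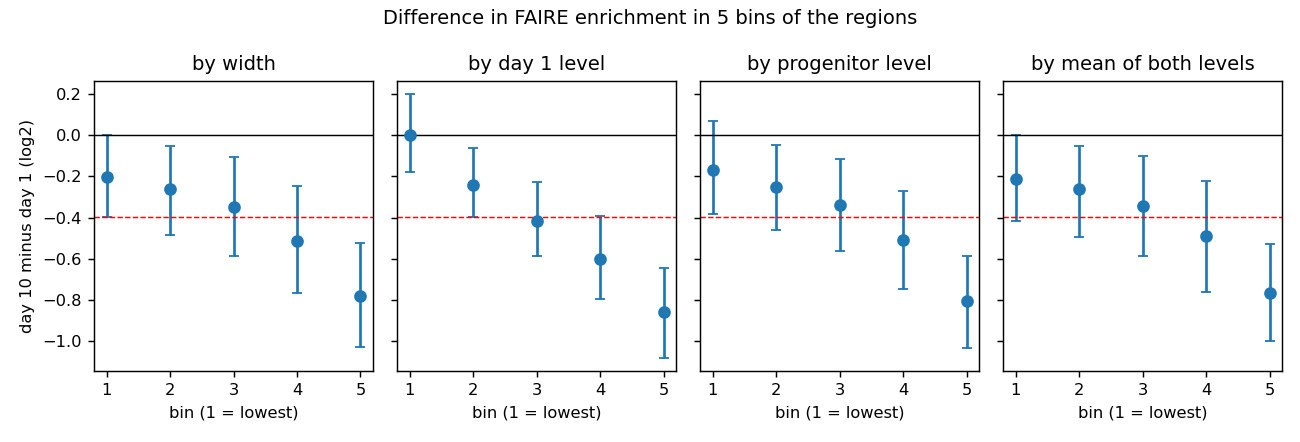
Median difference in FAIRE enrichment, day 10 minus day 1 (y axis, log2), in 5 equal bins of the 62877 regions ranked by width, day 1 level, progenitor level and the mean of the day 10 and day 1 levels (x axis, 1 is the lowest bin). Points are medians, bars the quartiles over regions and the dashed line the median of all regions, -0.40; the points fall from left to right in each panel, to between -0.77 and -0.86 in the highest bin.

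Width and level rise together, and the width gradient depended on which level was held fixed. Regions were cut again by width inside each bin of level, so these width bins differ from those used above and drawn below. In the lowest day 1 bin, the narrowest and widest had median widths of 153 and 236 bp. Within bins of the day 1 level, the widest bin minus the narrowest gave differences of 0.06, 0.17, 0.18, 0.11 and -0.11 from low to high day 1 level. On average this was 0.08, against -0.58 with no level held fixed, so the direction turned. Within bins of the progenitor level, the same step was -0.02, -0.06, -0.14, -0.17 and -0.27, and within bins of the mean of day 10 and day 1 it was -0.12, -0.18, -0.22, -0.28 and -0.30. The day 1 level gradient held within width. The average step was -0.66 between the highest and lowest day 1 bins, cut again inside each bin of width. Error in the day 1 value enters this step too. By progenitor level, in the bins drawn below, the narrowest regions had medians of -0.16, -0.22, -0.26 and -0.40, then 0.01 in a cell of 4 regions. The widest had -0.11 in the lowest progenitor bin and -0.86 in the highest.

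**Figure D3:**
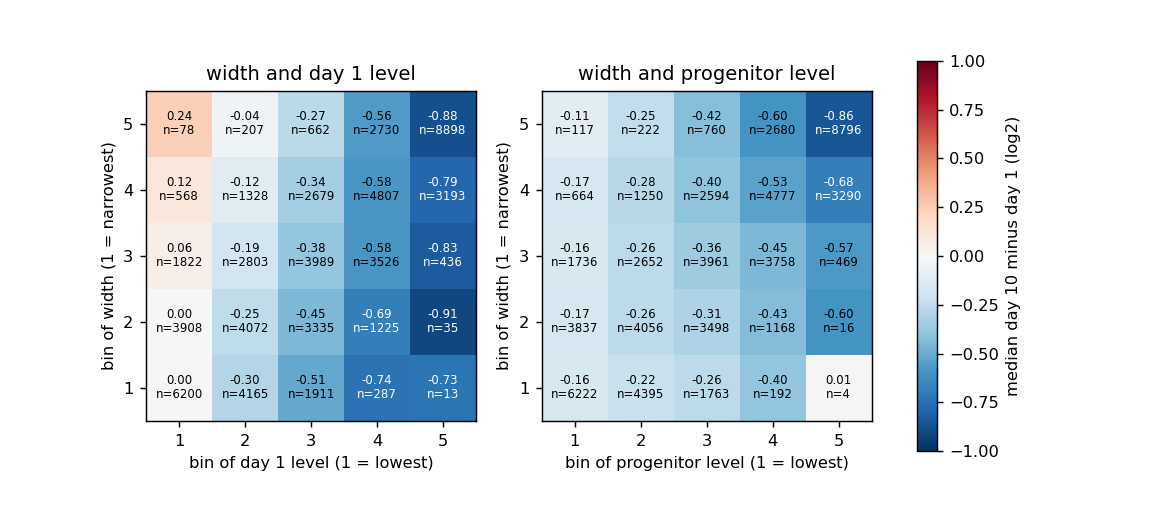
Median difference, day 10 minus day 1 (colour, log2, blue is lower at day 10), for regions grouped by bins of width (y axis) and bins of the day 1 level (x axis, left panel) or of the progenitor level (x axis, right panel), with the number of regions in each cell. In the left panel the medians fall from left to right in every line but the narrowest, where the last cell holds 13 regions. The widest line there starts at 0.24, higher at day 10, and ends at -0.88. In the right panel the widest line has medians of -0.11 to -0.86, and the cell of narrow regions with high progenitor level holds 4 regions.

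Read sums, which need no added constant, depended on a few regions that hold very many reads. Over all regions, the day 10 to day 1 ratio was 0.682, 0.627, 0.676, 0.627 and 0.757 from the narrowest to the widest bin, so the widest bin fell least. By progenitor level it was 0.779, 0.656, 0.590, 0.552 and 0.766 from the lowest to the highest bin. In 40 regions the reference alone had 1000 or more reads, and these regions held 43.4% of the day 10 reads and 24.6% of the day 1 reads. In the other 62837 regions, the reads summed to 954889 at day 10 and 1786909 at day 1, a ratio of 0.534. Over all regions that ratio was 0.711, so the 40 regions decide a large share of it. Without them, the ratio was 0.654, 0.627, 0.603, 0.540 and 0.484 from the narrowest to the widest bin, so the order by width turned and the widest bin fell most. By progenitor level it was 0.779, 0.646, 0.586, 0.521 and 0.470 from the lowest to the highest bin. Without the 40 regions, reads per 100 bp in the widest bin were 6.86 at day 10 and 14.2 at day 1, and in the narrowest bin 3.73 at day 10 and 5.71 at day 1. The 40 regions were set apart after their values had been seen.

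The strongest regions overlapped between the stages without being the same. Of the 628 regions in the top 1% at day 10, 366 were also in the top 1% at day 1, which is 58.3% of either list. Of the 6287 in the top 10% at day 10, 4615 (73.4%) were in the top 10% at day 1. The top 1% held 48.8% of day 10 reads and 31.3% of day 1 reads, each by its own ranking. The top 10 regions held 35.4% of day 10 reads and 19.6% of day 1 reads. The regions of the day 1 top 1% had a median difference of -1.0, and 320 of the 628 were at least 2-fold lower at day 10 while 1 was at least 2-fold higher. Over the table, 8.72% were at least 2-fold lower and 0.0509% at least 2-fold higher. The day 1 value picked this list and also stands in the difference with a minus sign, so error in it enters both. The progenitor top 1% had a median difference of -0.93, with 269 of 628 (42.8%) at least 2-fold lower at day 10.

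The 3 regions with the highest enrichment at day 1 were neighbours in the numbering. Region 26049, 1806 bp wide, had an enrichment of 4.0 at day 10 and 5.71 at day 1, with 6386 and 20829 reads at these stages, a difference of -1.70. Region 26050, 1674 bp wide, had 3.94 at day 10 and 5.66 at day 1, a difference of -1.72. Region 26051, 925 bp wide, had 3.98 at day 10 and 5.62 at day 1, a difference of -1.64. In progenitors the 3 regions stood at 5.47, 5.40 and 5.31, close to day 1. They were thus among the highest regions of the table and at least 2-fold lower at day 10 all the same. Their reference was high as well, with 1256, 1144 and 604 reads in the same order, against a median of 10 per region over the table.

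The 5 regions of the largest fall, chosen among those of above-median mean level, were each wider than the median region and stood above 2 on the log2 scale at day 1. Region 11660, 838 bp wide, had 225 reads in progenitors, 203 at day 1 and 18 at day 10. Its difference was -2.69, and its day 10 to day 1 read ratio was 0.0887 with an exact 95% interval of 0.0515 to 0.144. Region 47112, 441 bp wide, had 5 reads at day 10 and 81 at day 1, a difference of -2.21. Region 59069, 533 bp wide, had 5 reads at day 10 and 78 at day 1, a difference of -2.16. Region 38319, 596 bp wide, had 12 reads at day 10 and 109 at day 1, and region 10867, 593 bp wide, had 10 reads at day 10 and 100 at day 1, with a difference of -2.16 for both. At day 10 these 5 regions had an enrichment between 0.01 and 0.38, under the median of all regions.

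The largest rises looked different, since 4 of the 5 lay in 1 short run of the numbering. Region 62022, 220 bp wide, had 7568 reads at day 10 and 1075 at day 1, a difference of 2.80 and a read ratio of 7.04 with an exact 95% interval of 6.60 to 7.51. Region 62016, 305 bp wide, had 14642 reads at day 10 and 2469 at day 1, a difference of 2.56. Region 62013, 1037 bp wide, had 52719 reads at day 10 and 10154 at day 1, a difference of 2.37. These 3 regions also had many progenitor reads, 4302 in region 62022, 6424 in region 62016 and 31523 in region 62013, so day 1 was the lowest of the 3 stages in each. Region 62014, 245 bp wide, differed by 2.36, with 5459 reads in progenitors, 2182 at day 1 and 11291 at day 10. Region 323, outside that run and 286 bp wide, differed by 2.25, with 1003 reads in progenitors, 244 at day 1 and 1224 at day 10. Its reference was high too, with 512 reads against a median of 10 reference reads per region over the table.

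**Figure D4:**
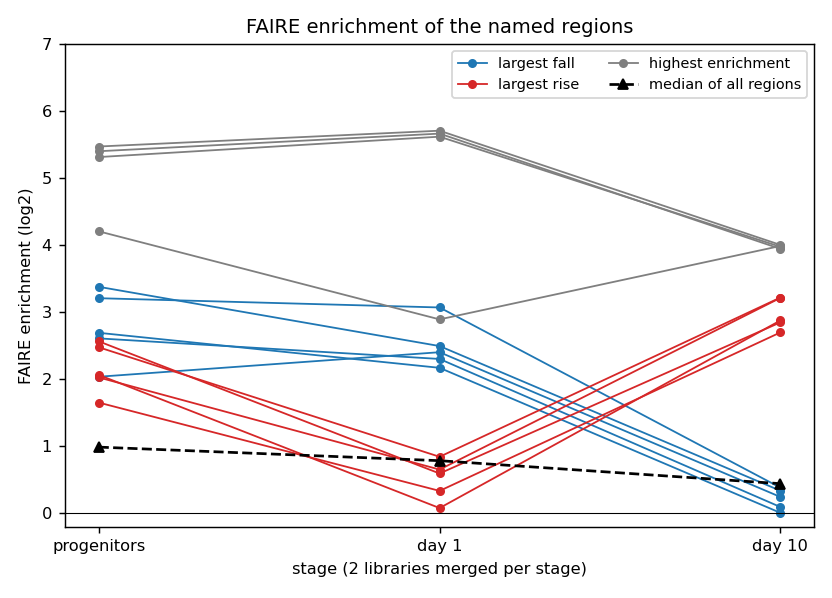
FAIRE enrichment (y axis, log2) of the 14 regions named by the rule at the 3 stages (x axis, progenitors, day 1, day 10, each 1 merged value of 2 libraries). The 5 largest falls drop to between 0.01 and 0.38 at day 10, the 5 largest rises have their lowest value at day 1, and the dashed line is the median of all regions, 0.99, 0.79 and 0.44.

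The run of region numbers 62013 to 62024, singled out after its values were seen, held 12 regions of 166 to 1804 bp, and all 12 were at least 2-fold higher at day 10. Their differences ran between 1.09 and 2.80 with a median of 1.86. Together they had 310989 reads in progenitors, 113268 at day 1 and 399548 at day 10, a day 10 to day 1 ratio of 3.53. They held 10.4% of progenitor reads, 4.78% of day 1 reads and 23.7% of day 10 reads, and 9.87% of reference reads. The reference itself was high there, with 3333 reads in region 62022 and 5128 in region 62016, against a median of 10 reference reads per region over the table. Region 62018 of this run, 275 bp wide, was among the 3 highest at day 10, with an enrichment of 3.99 at day 10 and 2.89 at day 1. Each region had 1 reference value shared by the 3 stages, so the reference cancels in these differences. Why these regions hold so many reads was not tested.

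Apart from that run, the fall was spread over the whole table. In 31 blocks of 2000 consecutive region numbers, the median difference lay between -0.49 and -0.34, below 0 in each. The ratio of summed reads lay between 0.435 and 0.715 in these blocks. The last block, of 877 regions, had a median of -0.38 like the others but a read ratio of 2.57, and without the 12 regions its ratio was 0.733. The highest ratio of the full blocks, 0.715, came from the block that holds region 33635, 1155 bp wide, which by itself had 185046 reads at day 10 and 247355 at day 1 and a difference of -0.42.

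**Figure D5:**
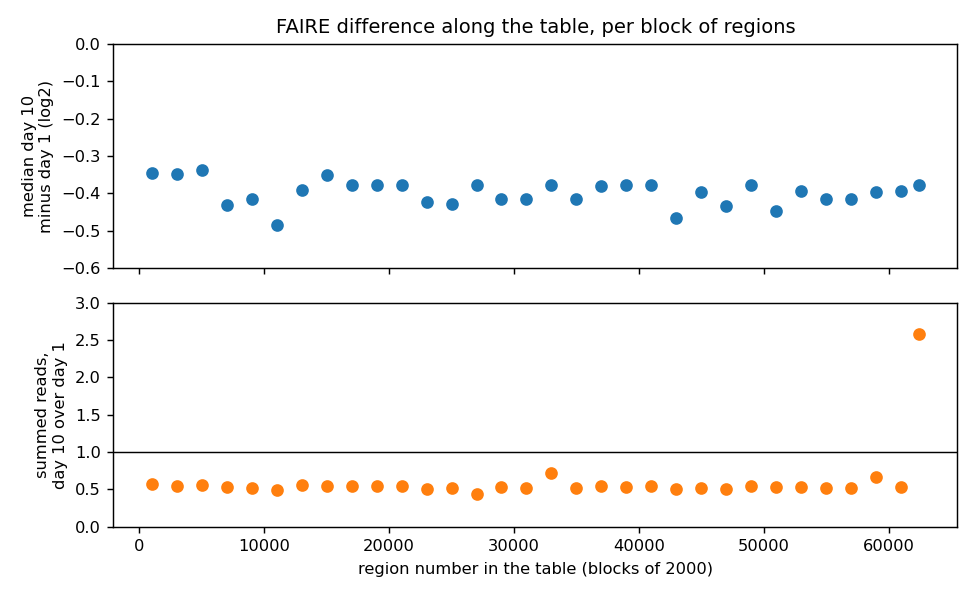
Median difference, day 10 minus day 1 (upper panel, y axis, log2), and ratio of summed reads, day 10 over day 1 (lower panel, y axis), in blocks of 2000 consecutive region numbers (x axis, region number in the table). The medians lie between -0.49 and -0.34 in every full block, whereas the ratio is 2.57 in the last block and at most 0.715 in the others.

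Regions with neighbouring numbers differed alike where reads were plentiful. Among regions with at least 100 reads over both stages, Pearson's r between the differences of adjacent numbers was 0.57 over 904 pairs and 0.38 over 892 pairs without the run. At a distance of 10 numbers it was 0.29 over 755 pairs, and at 100 numbers 0.04 over 505 pairs, both without the run. Over all regions it was 0.12 for adjacent numbers. These correlations are across regions of the same merged libraries and describe these libraries only.

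The centred groups differed in width, level and history. The 292 regions at least 2-fold higher at day 10 after centring had a median width of 199 bp and median enrichments of 0.40 in progenitors, 0.08 at day 1 and 0.85 at day 10. Their median reads were 11, 5 and 20 at the same stages, so most rest on few reads. In 253 of them (86.6%) the day 10 value, as deposited, was also above the progenitor value, against 8.28% of the regions less than 2-fold apart after centring. Of the 877 regions numbered above 62000, 23 (2.62%) were in this group, against 0.464% of the table. These 23 include all 12 regions of the run 62013 to 62024, which was singled out after its values were seen. The 995 regions at least 2-fold lower at day 10 after centring had a median width of 482 bp and median enrichments of 2.26 in progenitors, 2.03 at day 1 and 0.50 at day 10, with median reads of 84, 71 and 14. Of these, 973 (97.8%) had been above the median of all regions in progenitors, and 0 were above their progenitor value at day 10. The lower regions were thus open in progenitors and at day 1 alike, and came near the column median at day 10. Membership of both groups was set by the difference itself, so their day 10 and day 1 levels, and day 10 set against progenitors, are descriptions. Width and progenitor level were not used directly, but a fall of this size needs enough day 1 reads. Median day 1 reads were 9 in the narrowest bin of width and 60 in the widest. They were 10 in the lowest bin of progenitor level and 62 in the highest. The width and progenitor level of the lower group are therefore not independent of that choice.

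H3K27ac, the histone acetylation that marks active regulatory regions, was measured at the same stages in a table of its own. Its day 10 minus day 1 difference had a median of -0.11 and quartiles of -0.62 and 0.42 over 140641 regions, with 18729 (13.3%) at least 2-fold lower and 12529 (8.91%) at least 2-fold higher. With the columns centred, 17064 (12.1%) were lower and 13285 (9.45%) higher. The 2 tables were made separately and their regions were not joined, so the difference between them was not tested.

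No RNA of the FAIRE cultures, and none of day 1 neurons, was used here, so the stage labels could be checked only at day 10 and only in the DMSO control cultures of day 10 neurons, over 2 RNA libraries. Of 10 pan-neuronal markers, 9 were in the RNA table and all 9 averaged at least 100 normalised counts, among them Tubb3, a neuronal tubulin, at 26914 ± 1689 and Snap25, a synaptic fusion protein, at 13208 ± 9.69 (SD, n = 2). Fibroblast and mesenchyme markers were also high, 5 of 5 with a sum of 87812 to 94686 per library, led by the collagen gene Col3a1 at 47366 ± 3627 (SD, n = 2). The 6 progenitor markers summed to 11848 to 14455, with means from 42.4 for Hes5 to 7088 for Vim. The 5 astrocyte markers summed to 5516 to 6707, with means from 6.4 for S100b to 4673 for Slc1a3. All 4 pluripotency markers averaged under 10 normalised counts, and of these Pou5f1 and Zfp42 were at 0 in both libraries. The part of other cell types in the day 10 to day 1 FAIRE difference was not tested.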

How the data were processed

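FAIRE values were taken from the table that the authors deposited, which held log2 enrichments merged over the 2 libraries of each stage, with a region identifier and a width. Bowtie, TopHat, DESeq, HTSeq and the mouse build mm9 are named in the submitters' processing notes. The sources used here do not give their roles and versions, the peak caller, the reference or any matching of depth. Reads were recovered by finding whole numbers that give the deposited log2 values with a constant of 16 and 1 scaled reference step of 0.305 per reference read. The RNA signal used for the marker check was deposited by the authors as normalised counts per library.

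A linear model over libraries had been planned for values per library; the values are merged, so differences were described with no test. Exact 2-fold ratios were counted as 2-fold. Bins held equal numbers of regions by rank. The regions named are the 5 largest centred falls and the 5 largest centred rises among regions whose mean of day 10 and day 1 was above the median, and the 3 highest at each of these stages. Intervals of read ratios are exact (Clopper-Pearson, 95%) and cover counting error only. The regions, marker lists and comparisons were chosen with earlier results of these data known. Alternatives were another centring, equal totals, other thresholds, constants, read filters and rankings. Python 3.11.15, numpy 2.4.6, pandas 2.3.3, scipy 1.17.1 and matplotlib 3.10.9 were used. The recovery of reads and the finding of planted rises were tested on simulated data, and the counts of falls were not.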

Additional observations from a re-analysis of the deposited data

How the results depend on the processing

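The median difference stayed below 0 under each alternative run for it except centring on the column means, and the counts of changed regions moved under most alternatives. Regions at least 2-fold lower and higher at day 10 numbered 5484 and 32 as deposited, 995 and 292 with columns centred on their medians, 701 and 448 centred on their means, and 1813 and 200 with equal total reads. A change of 1.5-fold gave 21126 and 524, and 4-fold gave 12 and 6. Constants of 1, 8 and 32 in place of 16 gave 26835 and 1539, 12914 and 253, and 1384 and 13. With at least 50 reads the higher count was 15. Of the alternatives chosen after seeing the data, equal totals without regions 62013 to 62024 gave 838 and 716, leaving out regions above 62000 gave 19 higher, and regions with a reachable 2-fold fall gave 14 higher. The median and quartiles, -0.40, -0.68 and -0.13, became -0.056, -0.34 and 0.21 when centred, -0.20, -0.47 and 0.083 with equal totals, -0.045, -0.32 and 0.24 with equal totals without that run, and -0.51, -0.80 and -0.22 with at least 20 reads. Further alternatives chosen after seeing the data gave 0.013, -0.27 and 0.28 centred on the means, -0.83, -1.32 and -0.29 with a constant of 1, -0.55, -0.91 and -0.19 with 8, -0.26, -0.47 and -0.077 with 32, and -0.75, -1.0 and -0.50 with at least 50 reads. The log2 ratio of summed reads was -0.49, against -0.81 without that run and -0.90 without regions of 1000 or more reference reads. No other constant was tried for the width and level steps. The width step of -0.58 was -0.65 in 10 bins and reversed to 0.081 within 5 bins of the day 1 level. The day 1 level step of -0.86 was -0.63 ranked by progenitor level, -0.56 by the mean of both stages, -0.24 by reference reads and -0.099 by day 10 level (both chosen after seeing the data), -1.03 in 10 bins and -0.66 within 5 bins of width. Except for the changes that follow from a threshold, a constant or fewer regions, the cause was not tested. No paired analysis was possible because the columns are merged per stage, and for the same reason no replicate could be left out. Depth limits single regions, since the median region had 10 reads at day 10 and 17 at day 1.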
